A study of Homo sapiens with 5 samples.

Results

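LMNB2, TIMM13, MYC, DNMT1, MCM4, PRKDC, HBB and TOP1 are genes at which human replication origins were mapped by earlier studies of single loci. They are 8 of the 20033 protein-coding genes of the annotation and lie at 6 loci, since TIMM13 adjoins LMNB2 and PRKDC adjoins MCM4. An interval was assigned to a gene where it lay within 10 kb of the GENCODE gene record on hg38, so that the rule used positions and no measured value. By this rule the genes had 17 of the 23905 origins called by ini-seq 2 after 3 hours, 7 of the 10181 called after 15 minutes, 98 of 147657 SNS-seq peaks in the fraction of 0.5 to 2 kb and 105 of 184966 in that of 2 to 4 kb.

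The samples were all of EJ30, a human bladder carcinoma line, so that each value is that of 1 cell line and 1 list. For ini-seq 2, nuclei of EJ30 cells arrested in late G1 phase with mimosine were incubated in cytosolic extract of HeLa cells with Br-dUTP for 3 hours or for 15 minutes (the label of the latter adds the word "control" without saying of what), and newly copied heavy-light (HL) DNA was parted from unreplicated light-light (LL) DNA on caesium sulfate gradients. The 3-hour list gives each origin an efficiency, HL/(HL + LL), although its column is headed Z-score, and the 15-minute list gives a Z-score that ranks the origins of that reaction alone. SNS-seq instead isolates short nascent strands, here of 0.5 to 2 kb and of 2 to 4 kb, and those lists hold positions only. Library totals were not used here, and the lists hold neither reads per interval nor replicates, so the depth behind a given call is unknown, no spread between replicates could be given, and no test was made.

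Replication origins are the places where the MCM helicase, loaded on DNA in G1 phase, is activated in S phase and DNA synthesis begins in both directions. Metazoan origins have no strict consensus sequence. Many lie at CpG islands, stretches rich in unmethylated CpG dinucleotides that hold the promoters of most broadly expressed genes. The origin of the lamin B2 locus was placed between the end of LMNB2 and the start of TIMM13, and those of MCM4 and PRKDC, TOP1 and DNMT1 were placed at or near promoters. At MYC and in the beta-globin locus, initiation was described in broader regions. LMNB2 encodes a protein of the nuclear lamina, TIMM13 a chaperone of mitochondrial protein import, MYC a transcription factor of cell growth, DNMT1 the maintenance DNA methyltransferase, MCM4 a subunit of the replicative helicase, PRKDC the catalytic subunit of the DNA-dependent protein kinase, HBB the beta chain of adult haemoglobin and TOP1 a topoisomerase that relaxes supercoiled DNA.

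Selected sequences at the called intervals are given first, from hg38 and 5′ to 3′ on the strand of the gene, with CpG dinucleotides in capitals. Whether any call depends on them was not tested. The first is the whole gap of 51 bp between the gene records of LMNB2 and TIMM13, chr19:2427587-2427637, shown because earlier work placed the lamin B2 origin between these genes. It lay inside an interval of all 4 lists and had a GC content of 80.4% and 10 CpG. No coordinates of sites mapped by earlier studies were compared, here or at the other genes.
Gap between LMNB2 and TIMM13: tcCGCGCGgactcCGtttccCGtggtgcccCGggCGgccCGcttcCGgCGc
The next 3 come from other origins. They are the 200 bp upstream of the LMNB2 start (chr19:2456960-2457159), of which 141 bp lay in a 15-minute origin and 0 bp in a 3-hour origin; the 200 bp upstream of the TOP1 start (chr20:41028622-41028821), which lay wholly in a 3-hour origin; and the central 200 bp of the origin over the canonical DNMT1 start (chr19:10194651-10194850), which were covered by all 4 lists. They held 29, 26 and 23 CpG.
LMNB2 upstream: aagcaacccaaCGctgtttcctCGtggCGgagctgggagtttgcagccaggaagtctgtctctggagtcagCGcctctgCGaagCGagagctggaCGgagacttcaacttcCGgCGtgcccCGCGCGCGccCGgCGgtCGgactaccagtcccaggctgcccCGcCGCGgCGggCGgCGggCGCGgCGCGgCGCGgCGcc
TOP1 upstream: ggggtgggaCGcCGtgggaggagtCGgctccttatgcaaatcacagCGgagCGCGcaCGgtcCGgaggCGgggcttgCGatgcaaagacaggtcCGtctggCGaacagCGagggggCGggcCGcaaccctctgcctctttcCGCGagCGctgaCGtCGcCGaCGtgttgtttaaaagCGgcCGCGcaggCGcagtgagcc
DNMT1 origin centre: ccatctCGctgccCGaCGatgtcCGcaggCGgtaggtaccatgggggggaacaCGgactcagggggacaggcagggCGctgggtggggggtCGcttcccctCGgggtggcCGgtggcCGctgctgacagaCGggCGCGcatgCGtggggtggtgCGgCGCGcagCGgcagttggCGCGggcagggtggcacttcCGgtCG
The only interval of any list within 10 kb of HBB was an SNS-seq peak of 228 bp past the end of the gene (chr11:5224809-5225036), with a GC content of 49.1% and 3 CpG.
SNS-seq peak at HBB: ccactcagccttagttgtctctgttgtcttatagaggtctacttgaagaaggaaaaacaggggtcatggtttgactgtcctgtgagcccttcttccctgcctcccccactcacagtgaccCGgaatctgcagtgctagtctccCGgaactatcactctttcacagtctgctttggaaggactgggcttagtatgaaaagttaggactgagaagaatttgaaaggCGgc
The origin with the highest listed efficiency of the 17 was of another kind. Its central 200 bp (chr19:2418751-2418950, inside the TMPRSS9 record) are shown on the minus strand with runs of at least 3 G in capitals. They held 118 G, 78 A, 3 T and 1 C.
Purine-rich origin near TIMM13: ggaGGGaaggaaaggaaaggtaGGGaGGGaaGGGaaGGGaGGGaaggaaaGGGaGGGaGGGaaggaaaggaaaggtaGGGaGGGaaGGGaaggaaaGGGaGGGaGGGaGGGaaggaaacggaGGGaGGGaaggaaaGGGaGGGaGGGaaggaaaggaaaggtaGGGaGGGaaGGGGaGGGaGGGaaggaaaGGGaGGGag

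At 3 hours, 7 of the 8 genes had an origin within 10 kb, against 71.3% of all protein-coding genes. At 15 minutes it was 6 of 8, against 53.4%. An SNS-seq peak of the 0.5 to 2 kb fraction lay within 10 kb of 8 of 8 genes (88.8% of all protein-coding genes) and one of the 2 to 4 kb fraction within 10 kb of 7 of 8 (88.4%). HBB was the gene without an ini-seq 2 origin, and MYC had an origin at 3 hours but none at 15 minutes. With 8 genes, these counts are a description of named loci, and presence within 10 kb was common among all genes.

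**Figure D1:**
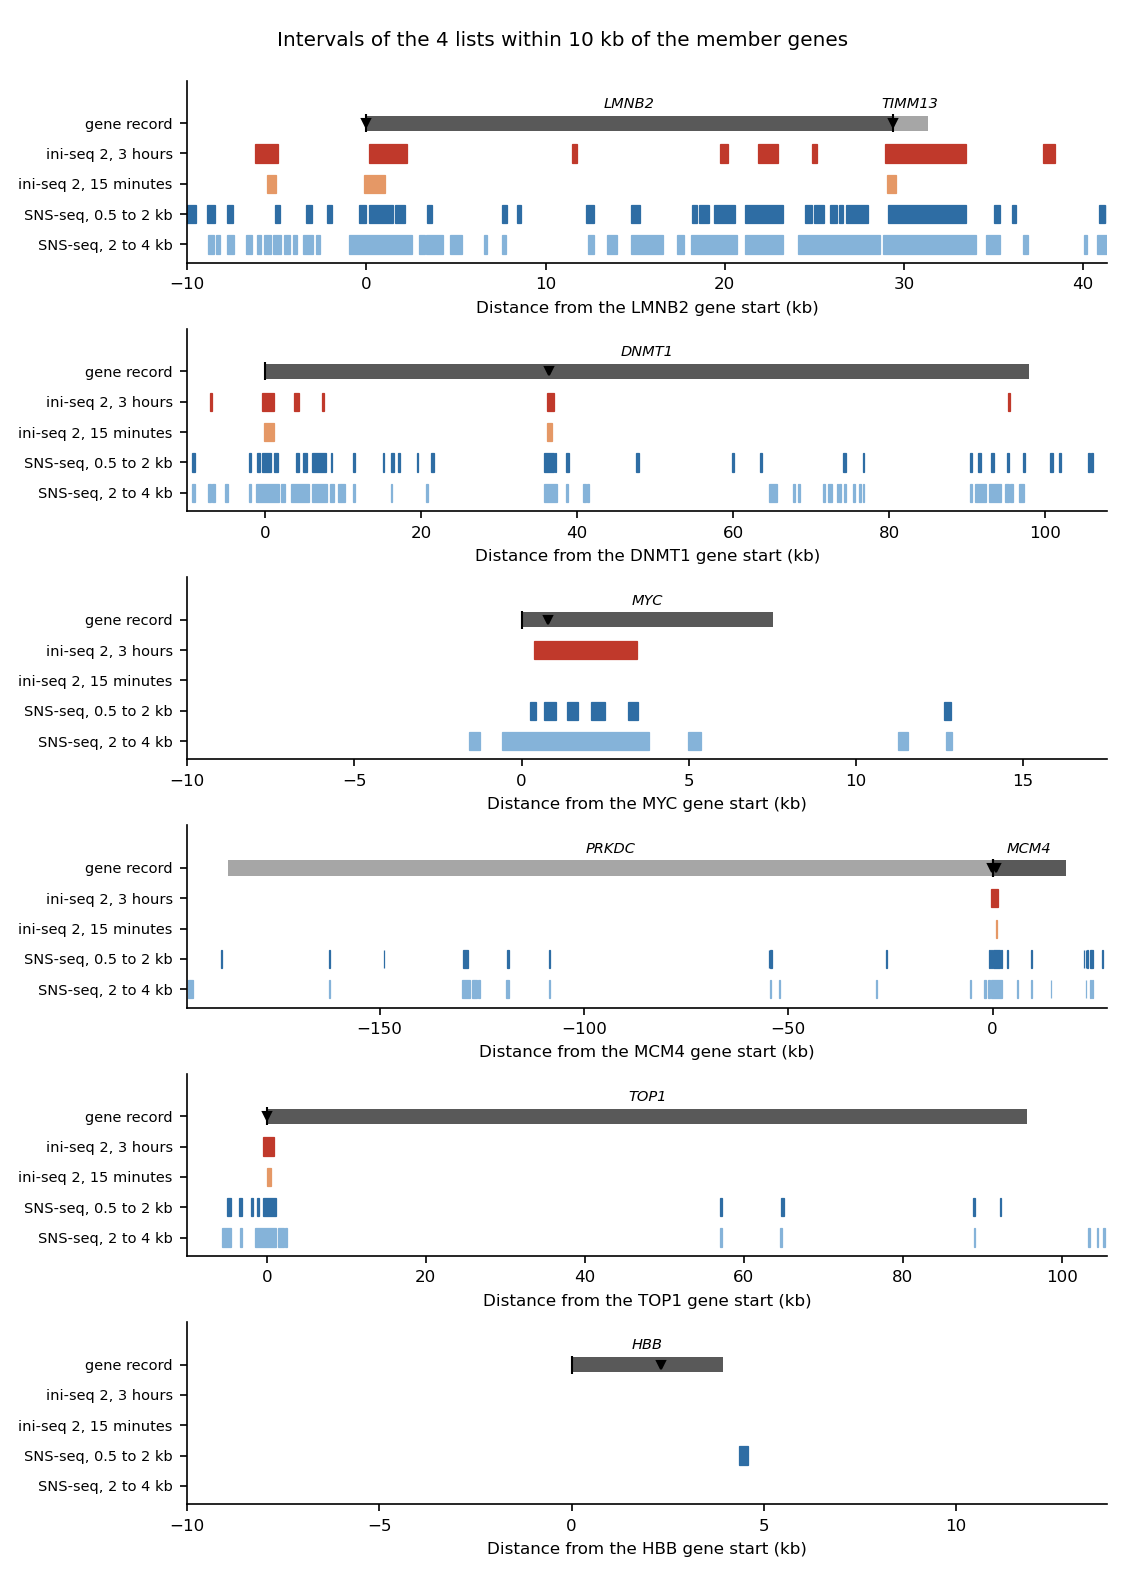
Intervals of the 4 lists (rows) at the 6 loci, against the distance from the start of the first gene named (kb, positive into the gene); grey bars are gene records, vertical ticks their starts and triangles the canonical starts. LMNB2 with TIMM13 and DNMT1 had several 3-hour origins, MYC, MCM4 with PRKDC and TOP1 had 1 each, and HBB had a single SNS-seq peak.

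The LMNB2 and TIMM13 locus had the most origins. Within 10 kb of LMNB2 (chr19:2427638-2456959, minus strand) 8 origins were called at 3 hours, and 5 of these were also within 10 kb of TIMM13 (chr19:2425625-2427586, minus strand). Over all protein-coding genes the median was 1 origin, and 1.97% had 8 or more. The origins covered 21.7% of the 49.3 kb around LMNB2. SNS-seq peaks covered 36.8% of the same stretch in the 0.5 to 2 kb fraction and 57.0% in the 2 to 4 kb fraction.

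The gap between LMNB2 and TIMM13 lay in the longest of these origins, which ran over 4500 bp from 2423501 to 2428000 and had an efficiency of 0.861. It held the whole TIMM13 record, the 3′ end of the LMNB2 record and part of the record of TMPRSS9, a gene of a membrane-bound serine protease. Of all 3-hour origins, 98.9% were shorter and 44.1% had a lower efficiency. At 15 minutes the call at this place was only 500 bp, from 2427401 to 2427900, and it held the gap and the TIMM13 start, 64 bp from its centre. Its Z-score was -1.29, and 12.1% of the 15-minute origins ranked lower. An SNS-seq peak of 4368 bp in the 0.5 to 2 kb fraction covered 97.0% of the 3-hour origin, and a peak of 5193 bp in the 2 to 4 kb fraction covered the whole of it. Of the 4 lists, the 15-minute one therefore gave the narrowest interval around the gap.

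At the other end of LMNB2, the reactions differed over the gene start itself. The 3-hour origin ran from 2454701 to 2456800, over coding sequence of exon 1 and the first part of intron 1, and stopped 159 bp short of the start. Its efficiency was 0.888. The 15-minute origin ran from 2455901 to 2457100, covered the start and reached 141 bp upstream of it, with a Z-score of 0.91 that 79.6% of the 15-minute origins did not reach. The stretch of 300 bp that lay outside the 3-hour origin held the LMNB2 start and part of the CpG-rich upstream sequence given above. The peak of the 2 to 4 kb fraction covered the start, and the nearest peak of the 0.5 to 2 kb fraction was 3 bp from it, which is close to the uncertainty of 1 bp in how SNS-seq starts are counted.

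Between these ends, 4 origins of 300 to 1100 bp were called at 3 hours inside LMNB2 and none of them at 15 minutes. They were an origin of 300 bp with coding sequence of exon 10 (efficiency 0.872), one of 1100 bp over exons 5 to 8 that also holds the start of the microRNA gene MIR7108 (0.888), one of 400 bp in intron 4 (0.889) and one of 300 bp in intron 1 (0.847). Upstream of LMNB2, an origin of 1300 bp at the start of the non-coding RNA gene LINC01775 had an efficiency of 0.886 and was called at 15 minutes as 500 bp with a Z-score of -0.88. The efficiencies of the origins at the locus thus lay between 0.847 and 0.889, with 1 exception.

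The exception was the purine-rich origin inside TMPRSS9, from 2418501 to 2419200. Its efficiency of 0.9532 was the highest of the 17, though barely above the 0.9527 of the TOP1 origin, and 90.0% of all 3-hour origins were lower. It had the lowest GC content of the 17 and held 20 G4 motifs, all on the minus strand. It was not called at 15 minutes, and no SNS-seq peak of either fraction overlapped it. The authors kept only uniquely aligned reads. Neither how well reads map to this repetitive tract nor how much Br-dUTP it takes up was tested.

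DNMT1 (chr19:10133342-10231286, minus strand) had 6 origins at 3 hours and 2 at 15 minutes. The gene record begins far upstream of the gene's canonical transcript, whose start, at 10194953, lies 36333 bp inside the record. The gene has 43 annotated transcript starts, of which the record start and the canonical start are described here. Both lay in an efficient origin. At the record start the origin ran from 10230101 to 10231700 with an efficiency of 0.937, and it also held the starts of S1PR2, which encodes a receptor for sphingosine 1-phosphate, and of the microRNA gene MIR4322. At the canonical start it ran from 10194301 to 10195200 with an efficiency of 0.929, over exon 1, intron 1 and 247 bp of upstream sequence. Their GC contents were 69.6% and 69.3%.

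The same 2 origins were called at 15 minutes, in 1300 bp at the record start and 700 bp at the canonical start. Their Z-scores were low for that list, at -0.83 and -1.23, and 23.1% and 13.3% of the 15-minute origins ranked lower. Their 3-hour efficiencies exceeded those of 81.9% and 77.9% of the 3-hour list, but the lists differ in length and make-up, so their percentiles are not on the same scale. The other 4 origins of DNMT1 were 300 to 600 bp long and had the lowest efficiencies of the 17, from 0.803 to 0.825. They lay over part of exon 39, within the overlapping S1PR2 record (2 origins) and upstream of the record start, and none of them was called at 15 minutes.

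MCM4 (chr8:47960185-47978160, plus strand) and PRKDC (chr8:47773111-47960178, minus strand) have starts a few bases apart and are transcribed away from each other. They shared 1 origin of 1700 bp at 3 hours, from 47959801 to 47961500, with an efficiency of 0.907 and a GC content of 63.6%. It covered both record starts and both canonical starts. At 15 minutes the call was 400 bp, from 47960901 to 47961300, lay 716 bp from the MCM4 record start and 723 bp from that of PRKDC, and covered neither. It did hold the canonical start of MCM4 at 47960941, with sequence of its exons 1 and 2. This interval had a GC content of 76.0% and the highest Z-score of the 7, 1.08. In both SNS-seq fractions a peak covered both record starts, in the 0.5 to 2 kb fraction by a margin of 1 bp at PRKDC. In the remaining 187 kb of PRKDC no ini-seq 2 origin was called at 3 hours, while SNS-seq peaks that do not touch the shared origin lay there, 10 of the shorter and 13 of the longer fraction.

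TOP1 (chr20:41028822-41124487, plus strand) had 1 origin at each time, over its start. The 3-hour efficiency of 0.953 and the 15-minute Z-score of 1.01 exceeded 89.8% and 82.4% of their lists, so that TOP1 ranked high in both. The 15-minute call was 600 bp against 1300 bp at 3 hours and began 21 bp upstream of the start. Most of the upstream sequence shown above thus lay in the 3-hour call but not in the 15-minute call. Peaks of both SNS-seq fractions covered all of that sequence. No further 3-hour origin was called in the 94.8 kb from there to the end of the gene. Among 4947 other protein-coding genes with a start covered at both times, the genes whose origin was most like that of TOP1 in efficiency, Z-score and length were RELT (0.952, 0.96 and 1300 bp), RDX (0.953, 0.93 and 1300 bp) and SLC2A13 (0.952, 1.09 and 1300 bp). The percentile differences on the 3 measures summed to 2.51, 3.84 and 3.88 points.

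MYC (chr8:127735434-127742951, plus strand) had 1 origin at 3 hours, from 127735801 to 127738900. It was long, with 3100 bp, and its efficiency of 0.841 lay just under the limit of 0.842 that closes the lowest of 3 classes of equal size. It began 367 bp downstream of the record start and held the canonical start, 797 bp into the record, with exon 1 and part of exon 2. At 15 minutes the nearest origin was 51.2 kb beyond the gene. A peak of 4389 bp in the 2 to 4 kb SNS-seq fraction covered the whole origin, and 5 shorter peaks of the 0.5 to 2 kb fraction covered 46.5% of it.

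HBB (chr11:5225464-5229395, minus strand) had no ini-seq 2 origin at either time. The nearest at 3 hours lay 617 kb from the gene, from 4608001 to 4608400 with an efficiency of 0.8075, and the nearest at 15 minutes lay 1030 kb away. The 228 bp peak shown above, 428 bp past the end of the gene, was the only SNS-seq peak within 10 kb, and the nearest of the 2 to 4 kb fraction lay 55.1 kb away. None of the other genes of the beta-globin cluster, HBD, HBG1, HBG2 and HBE1, had an ini-seq 2 origin within 10 kb either. In the whole stretch of the cluster's records with 10 kb on each side (chr11:5215464-5515652) SNS-seq gave 8 peaks in the 0.5 to 2 kb fraction and 6 in the other. The records of HBG2 and HBE1 begin far upstream of their canonical starts, which widens this stretch. The authors concluded that the origins found by ini-seq 2 are early replicating ones. When the beta-globin cluster replicates in these cells was not tested.

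A 3-hour origin covered the record start of 5 of the 8 genes (TIMM13, DNMT1, MCM4, PRKDC and TOP1), against 42.5% of all protein-coding genes, and a 15-minute origin that of 4 (LMNB2, TIMM13, DNMT1 and TOP1), against 26.7%. Peaks of the 0.5 to 2 kb SNS-seq fraction covered 5 of 8 starts (47.9% of all), and those of the 2 to 4 kb fraction covered 7 of 8 (63.5%). The starts of TIMM13, DNMT1 and TOP1 lay in an interval of all 4 lists, as did 23.3% of all protein-coding starts. With the start of the canonical transcript in place of the record start, the count at 3 hours became 6, with MYC added (50.9% of all protein-coding genes), and at 15 minutes 5, with MCM4 added (34.2%). Over the 8524 protein-coding starts that a 3-hour origin covered, the median efficiency was 0.915. The TOP1 origin exceeded 82.5% of them, the origin at the DNMT1 record start 68.3%, the shared MCM4 and PRKDC origin 43.7% and the TIMM13 origin 17.3%.

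**Figure D2:**
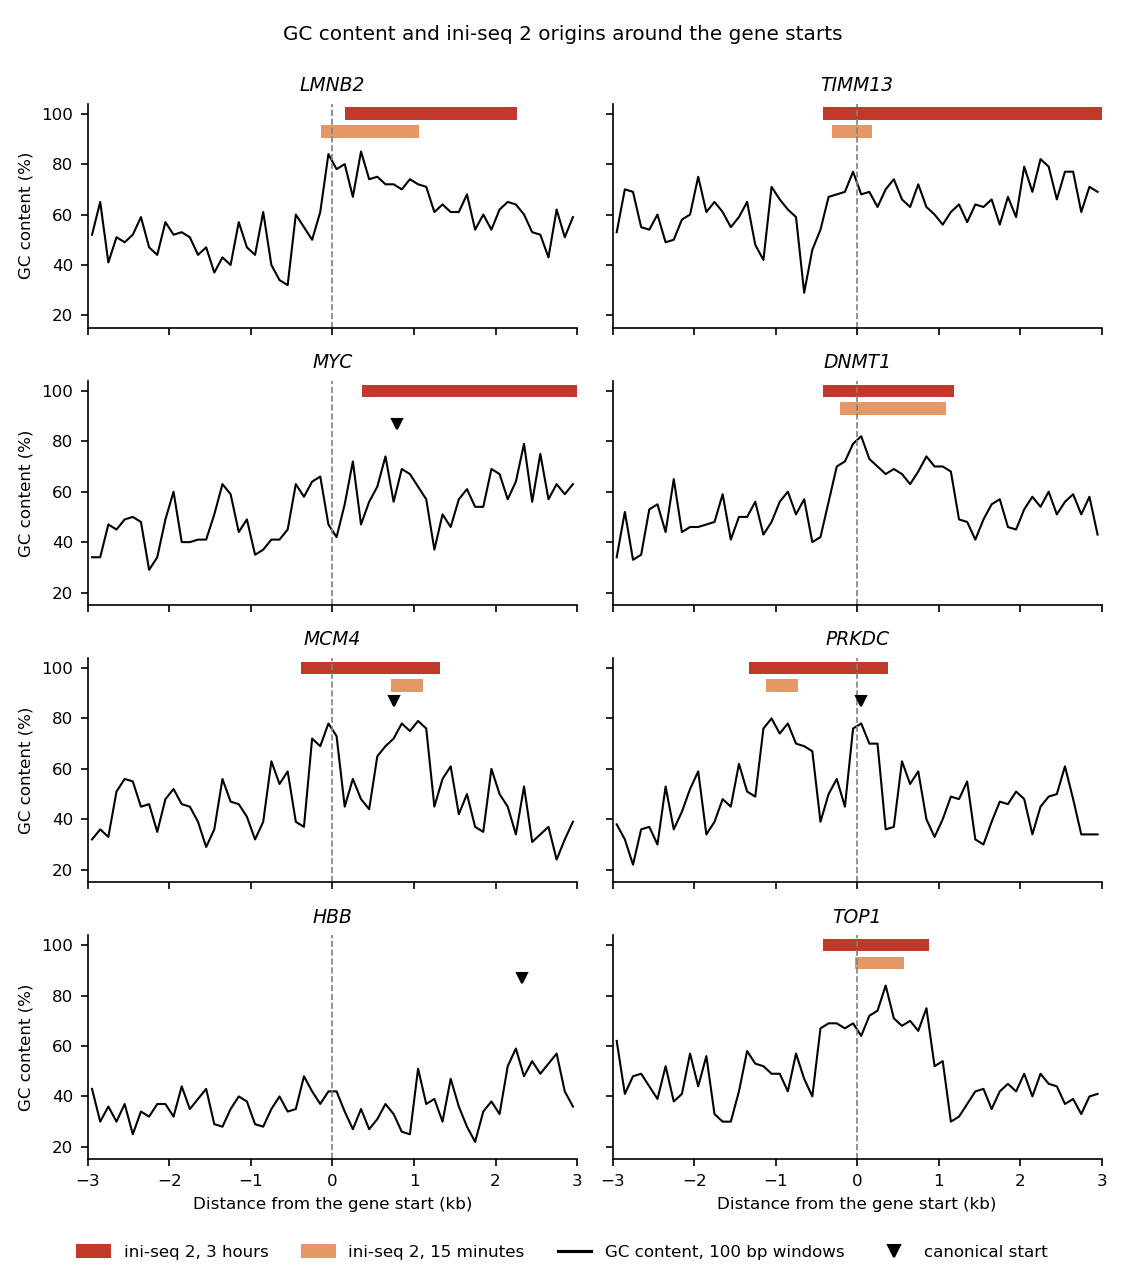
GC content in 100 bp windows (%, black line) against the distance from the gene record start (kb, positive into the gene), with ini-seq 2 origins of 3 hours (red) and 15 minutes (orange) as bars and the canonical start as a triangle where it differs and lies in range. The bars lie over stretches of higher GC content in the 7 genes that have them, and HBB has neither bar.

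The starts differed in base composition. In the 1 kb centred on the record start, GC content was 70.6% at TOP1, 69.4% at LMNB2, 68.0% at DNMT1 and 67.9% at TIMM13. It was 57.0% at MYC, 56.1% at MCM4, 55.7% at PRKDC and 36.9% at HBB, and 3.14% of protein-coding starts were lower than HBB. Of all protein-coding starts with at least 65% GC, 86.0% lay in a 3-hour origin and 77.5% in a 15-minute origin. Between 55% and 65% GC these shares were 48.0% and 13.9%. Below 45%, the band of HBB, 0 of 2582 starts lay in an origin at either time. Were these starts only a sample, a limit of 3 counts would allow a share of up to 0.116%. Within their bands, the LMNB2 start at 3 hours was among the minority without an origin, and the lack of one at the HBB record start was shared by every start of its band. The canonical HBB start lies 2324 bp away, and GC content around it was 48.2%. Of the record starts with 45% to 55% GC, 119 of 4310 (2.76%) lay in a 3-hour origin and 13 in a 15-minute origin. Around the canonical starts of MCM4 and DNMT1, GC content was 65.8% and 63.3%. By these values each gene would fall in the band that the other has by its record start. Whether base composition or the time of replication accounts for the lack of an origin at HBB was not tested.

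The 17 origins at the 3-hour time came unevenly from the loci, with 8 at LMNB2 and TIMM13 and 6 at DNMT1. Their medians and classes therefore describe mostly neighbouring origins of those loci. They ran from 0.803 to 0.953 in efficiency, with a median of 0.886, against a median of 0.873 over the list. Their lengths ran from 300 to 4500 bp with a median of 900 bp, against 700 bp over the list, and the median GC content was 67.0% in both. Divided at 0.842 and 0.9065, the limits that cut the list in 3 classes of equal size, 5 were of high, 7 of medium and 5 of low efficiency. The origin shared by MCM4 and PRKDC, at 0.9066, lay directly above the upper limit.

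**Figure D3:**
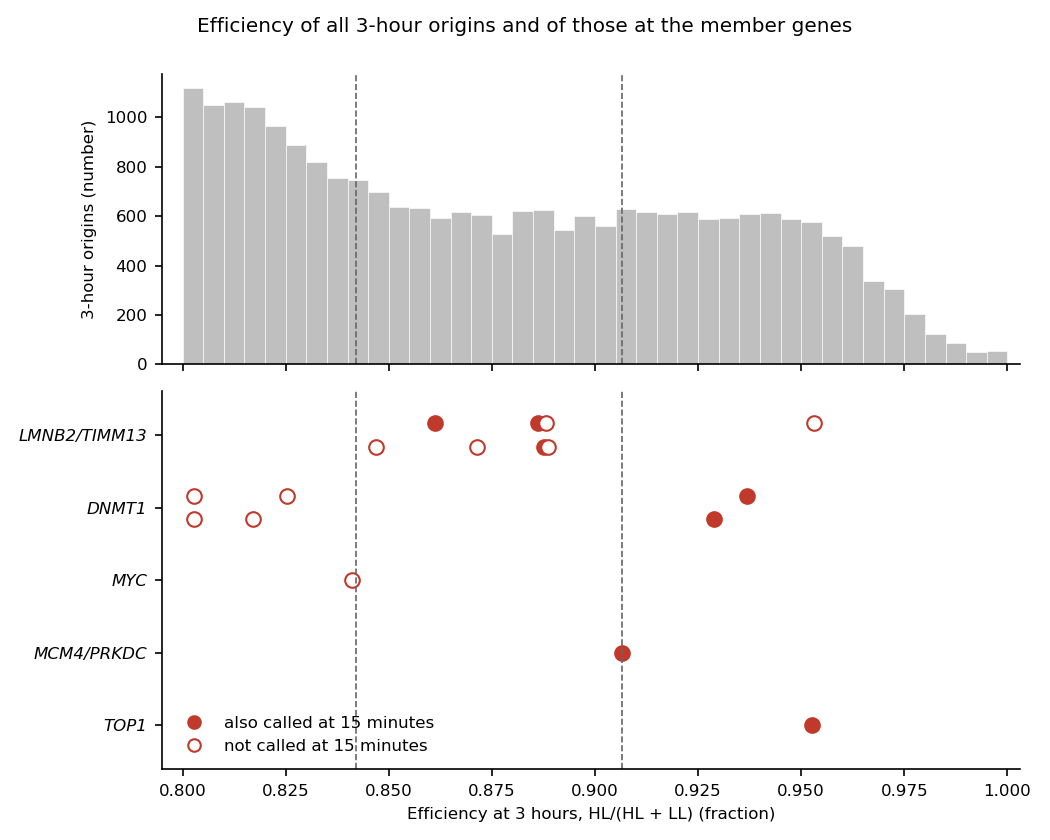
Number of 3-hour origins by efficiency, HL/(HL + LL), for the whole list (grey, top) and the 17 origins at the member genes by locus (bottom), filled where a 15-minute origin overlapped; vertical spread is for legibility only and dashed lines are the class limits 0.842 and 0.9065. The low class holds open circles alone, and 4 of the 5 circles in the high class are filled.

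A 15-minute origin overlapped 7 of the 17, against 40.1% of the 3-hour list. By class these were 4 of 5 high, 3 of 7 medium and 0 of 5 low efficiency origins, and over the list the shares were 84.3%, 31.7% and 4.55%. The 7 had efficiencies from 0.861 to 0.953 with a median of 0.907, and the other 10 ran from 0.803 to 0.953 with a median of 0.844, so the ranges overlapped. The high efficiency origin without a 15-minute call was the purine-rich one. In 6 of the 7 pairs the 15-minute origin lay wholly inside the 3-hour origin, as in 83.4% of all overlapping pairs, and the exception was that at the LMNB2 start. The 3-hour interval was 1.23 to 9 times as long as the 15-minute interval, with the largest ratio at the gap between LMNB2 and TIMM13, and the median ratio over all pairs was 1.5.

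An SNS-seq peak of either fraction overlapped 15 of the 17 origins (91.6% of the list), and peaks of both fractions overlapped 14 (77.7%). The purine-rich origin and the one in intron 1 of LMNB2 had none, and the origin upstream of DNMT1 had peaks of the 2 to 4 kb fraction alone. Seen from the other side, 21 of the 98 peaks of the 0.5 to 2 kb fraction and 18 of the 105 peaks of the 2 to 4 kb fraction overlapped a 3-hour origin, or 21.4% and 17.1%, against 16.1% and 11.8% of the whole lists. Most SNS-seq peaks at these genes therefore lay outside the 3-hour origins, as did most peaks of the whole lists. Of the 98 peaks, 73.5% overlapped a peak of the other fraction, and of the 105 peaks, 48.6% did, against 64.0% and 38.8% of the whole lists.

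G4 motifs, searched on both strands as 4 runs of at least 3 G with 1 to 7 bases between runs, were found in 12 of the 17 origins, against 71.0% of the list. There were 9 in the origin over TIMM13, 6 in that of MYC and 6 at the 5′ end of LMNB2, 4 in the MCM4 and PRKDC origin, and 2 each in the origins at TOP1 and at the DNMT1 record start. The 5 origins without a motif were 300 to 400 bp long.

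The families of the genes and 2 further sites of single-locus studies were set beside the members. Of the 28 genes in these lists that are not members, 18 had a 3-hour origin and 14 a 15-minute origin within 10 kb, and 13 and 8 had one over the record start. The corresponding shares of all protein-coding genes are those given above, 71.3%, 53.4%, 42.5% and 26.7%, and with so few genes the family counts describe named genes alone. All 6 subunits of the MCM2-7 helicase had a 3-hour origin within 10 kb, and 5 of 6 starts were covered, with efficiencies from 0.893 (MCM5) to 0.955 (MCM2), while MCM2 alone had its start covered at 15 minutes. All 3 DNA methyltransferase genes had their starts covered at both times, with DNMT3A at 0.962 and a Z-score of 1.55. Of the topoisomerase genes 4 of 6 starts were covered at 3 hours, and TOP1 had the highest efficiency among them. TIMM13 was the only 1 of 5 small Tim protein genes with an origin within 10 kb at either time. Of the other sites, HPRT1, a purine salvage gene, had a start origin of 0.971, while FMR1 had a 15-minute origin over its start (Z-score 0.38) but no 3-hour origin within 10 kb.

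**Figure D4:**
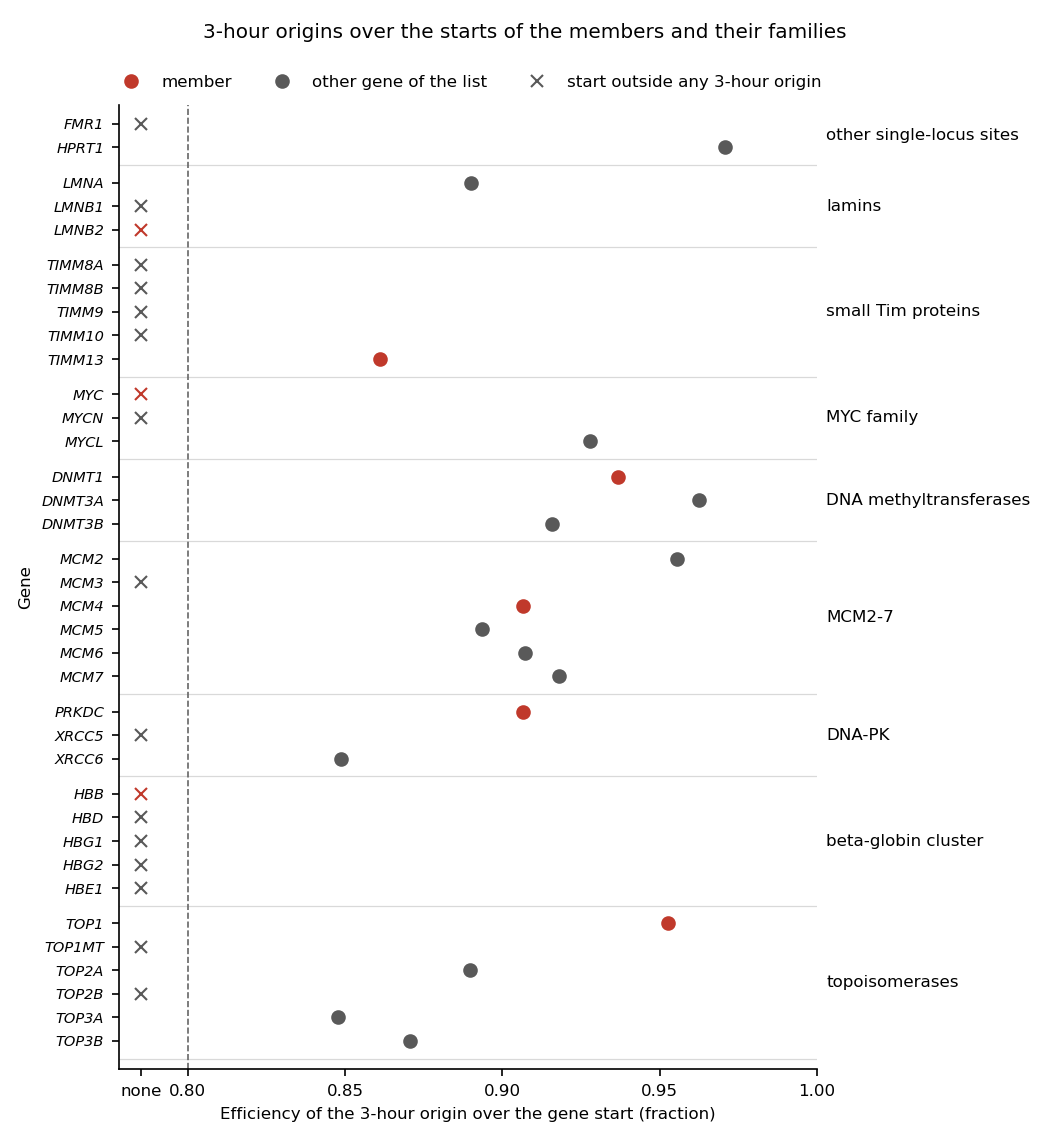
Efficiency of the 3-hour origin over the record start (fraction) for the members (red) and the other genes of their families and of 2 further single-locus sites (grey), with a cross where no 3-hour origin covers the start. The beta-globin genes show crosses alone, and covered starts lie between 0.848 and 0.971.

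Other origins lay near the limit of 10 kb. Farthest inside it were the origin in intron 4 of LMNB2, 9.21 kb from TIMM13 (0.889), and the purine-rich origin, 8.44 kb from LMNB2. The origin upstream of DNMT1 followed, 6.82 kb from the record (0.825). The intron 4 origin lies inside the LMNB2 record, so its place in the set does not depend on the limit. The purine-rich origin is 6425 bp from TIMM13. Nearest outside it were an origin 12.1 kb beyond TOP1 with an efficiency of 0.949 and a 15-minute Z-score of 0.96, one 13.2 kb beyond DNMT1 (0.825) and one 17.6 kb upstream of LMNB2 (0.872). Within 100 kb of their starts, LMNB2, TIMM13 and DNMT1 had 18, 19 and 16 origins at 3 hours. MYC, MCM4, PRKDC and TOP1 had 2 each, which was the median over protein-coding genes, and HBB had 0.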

How the data were processed

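The data are 4 lists from EJ30 cells on hg38: ini-seq 2 origins after 3 hours and after 15 minutes, and SNS-seq peaks of 2 strand-size fractions. The genomic DNA input of SNS-seq was not analysed here. For ini-seq 2 the authors aligned reads with bowtie2, kept unique reads without duplicates, counted HL and LL in 100 bp windows, took windows whose log2(HL/LL) was 2 or more, joined those within 500 bp and kept intervals with an efficiency of at least 0.8. Deposited values are that efficiency, a fraction, at 3 hours, where 2 biological replicates were pooled, and a Z-score, a score standardised over its list, at 15 minutes, for which the number of replicates is not given in the sources used here. The authors called SNS-seq peaks with MACS2 against the input, and for these only positions are given. Reads per interval are in no list and the library totals in the study were not used, so the depth behind each call is unknown.

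Intervals were assigned to GENCODE 44 gene records with 10 kb on each side, overlaps needed 1 bp, and GC content, CpG and G4 motifs were read from the hg38 sequence. The gene start is the start of the record, and the canonical start that of the Ensembl canonical transcript. Exons are those of the canonical transcript. Shares over all genes or origins are given as background, with no test, since each condition is 1 list. The interval search was tested on simulated data. Genes named beyond the members were those whose start lay in a member's interval, the genes of the members' families, 2 further single-locus sites (another of that list is not reported here), and the 3 genes most like TOP1. The members and lists were chosen with earlier results of these data known. Alternatives changed the distance, the thresholds, the overlap, the start and the gene set. Scripts ran in Python 3.11.15 with pandas 2.3.3, numpy 2.4.6 and scipy 1.17.1, and figures were drawn with matplotlib 3.10.9.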

Additional observations from a re-analysis of the deposited data

How the results depend on the processing

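Of 45 alternative values of 13 results, 34 stayed close to the value reported (within 1.5 times for a count, within the 95% binomial interval for a share) and 11 did not. The list of 17 origins at 3 hours fell to 5 with an efficiency of at least 0.9, and that of 7 origins at 15 minutes to 3 with a Z-score of at least 0, where 2 starts in place of 4 were covered. Counting SNS-seq peaks within 10 kb of the start rather than of the record left 48 of the 0.5 to 2 kb and 50 of the 2 to 4 kb fraction. When at least 50% of a 3-hour origin had to be covered at 15 minutes, 2 remained of 7. G4 motifs with runs of at least 4 G were found in 2 origins instead of 12. Shares of the whole lists at these stricter settings are not given here. The lower counts are therefore not read as traits of these genes. The share of genes with a 3-hour origin within 10 kb was 40.4% over all annotated genes and 92.1% over protein-coding genes with at least 60% GC at the start, and the share of covered starts was 18.1% and 77.5%. The canonical transcript start was added as an alternative after seeing the data. No paired analysis was possible because each condition is 1 list, and no sample could be left out for the same reason. HBB had no ini-seq 2 origin under any distance tried, an outcome fixed in advance because the nearest lay 617 kb away. Since the lists give no reads per interval, how near any stretch at HBB came to a call is unknown.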
